A study of Mus musculus with 8 samples.

Results

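Complement, clotting and fibrinolysis genes were followed in livers of mice with steatohepatitis. The set held 45 genes of the 25239 symbols counted in each liver, chosen by symbol for what their proteins do: 25 belong to complement, 17 to clotting and 3 to fibrinolysis. Read counts of 4 control and 4 Smo-KO livers were compared. All 8 mice were adult males with floxed alleles of Smo (Smo fl/fl), fed for 6 weeks a diet (CDA-HFD) that lacked choline, held defined amino acids in place of protein and drew 60% of its kcal from fat, and each was given 1 adeno-associated virus of serotype 8 a week before sacrifice. The virus of control mice encoded luciferase and that of Smo-KO mice Cre recombinase, each behind the hepatocyte promoter TBG. Smo encodes Smoothened, the membrane protein through which Hedgehog signals pass into the cell. The deposited labels call the genotype of the luciferase group WT, although the study's methods give Smo fl/fl mice for both groups, and an age in weeks is not given for this feeding cohort in the sources used here. Livers of mice without virus or on standard chow were not analysed here. RNA came from whole liver, so the other liver cells were measured together with the hepatocytes that the vector targets.

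The liver makes most proteins of blood plasma that take part in these cascades. Complement is set off by antibody (classical pathway), by sugars on microbes (lectin pathway) or by its own turnover (alternative pathway), and all routes meet at C3 and can end in a pore in the target membrane. Clotting runs through a chain of proteases to thrombin, which turns fibrinogen into fibrin; fibrinolysis, led by plasmin, dissolves the clot. Nearly all of these proteins come from hepatocytes, while the chains of C1q are made by macrophages, properdin by leukocytes, and factor D in the mouse mainly by fat cells. Many of the hepatocyte genes belong to the acute-phase response, which interleukin-6 drives, and some to the interferon response.

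Between 9177277 and 9999732 reads per liver fell on genes in the control group (median 9643036) and between 8203299 and 9543675 in the Smo-KO group (median 9406611). Levels are given as read counts per 1000000 reads (CPM), scaled between livers by the trimmed mean of M-values, and 3 reads came to between 0.297 and 0.366 CPM. Reads outside annotated genes made up 8.38%, 9.32%, 7.56% and 8.05% in control livers and 8.99%, 8.97%, 9.68% and 9.26% in Smo-KO livers, so that 3 of 4 control livers lay below every Smo-KO liver; the part of this difference in the gene values was not tested. Smo itself was counted at 8.17, 8.49, 8.74 and 8.21 CPM in the control livers and at 5.67, 3.93, 4.27 and 4.37 CPM in the Smo-KO livers. The 2 groups did not overlap, and the Smo-KO mean was 54.3% of the control mean (log2 fold change -0.88, 95% interval -1.22 to -0.53, edgeR adjusted p = 0.0957, DESeq2 adjusted p = 0.00646). Whole liver holds Smo RNA of other cells as well, so this is not the loss within hepatocytes. Labels and Smo counts pointed the same way in all 8 livers.

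No complement, clotting or fibrinolysis gene passed edgeR's quasi-likelihood test after Benjamini-Hochberg adjustment over all 12977 genes tested, and neither did any other gene (0 genes at adjusted p under 0.05, 1797 at unadjusted p under 0.05). Of the 45 genes 44 had enough reads to be tested; Cfd was not. Mbl2, Masp1 and Fga, 3 genes in all, had an unadjusted p under 0.05, all lower in Smo-KO livers. That is 6.82% of the 44, beside a background of 13.8% of all genes tested, of which 7.15% were lower and 6.7% higher. DESeq2's Wald test gave 1 member, Mbl2, an adjusted p under 0.05, beside 1.29% of all genes (167). In 1 member, again Mbl2, the CPM of the groups did not overlap, beside 7.37% of all genes tested (4.34% lower, 3.03% higher). The log2 fold changes of the 44 ran from -0.49 to 0.23, with 22 below and 22 above 0. Their median was 0.0030, beside -0.00084 over all genes. The median was 0.05 for the 24 complement genes tested, -0.01 for the 17 clotting genes and -0.06 for the 3 fibrinolysis genes. For complement it was 0.03 when C1q, Cfp and Cfd were left out, and -0.011 when Smo-KO liver 2 was left out. In 43 of the 44 genes the 95% interval of the fold change lay within 1.5-fold in either direction, which held for 70.8% of all genes tested and for 89.2% of the 2692 genes counted at least as highly as the lowest of the 44. The exception was Mbl2. With 4 livers against 4, an exact two-sided permutation test of 1 gene cannot give a p below 0.0286.

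**Figure D1:**
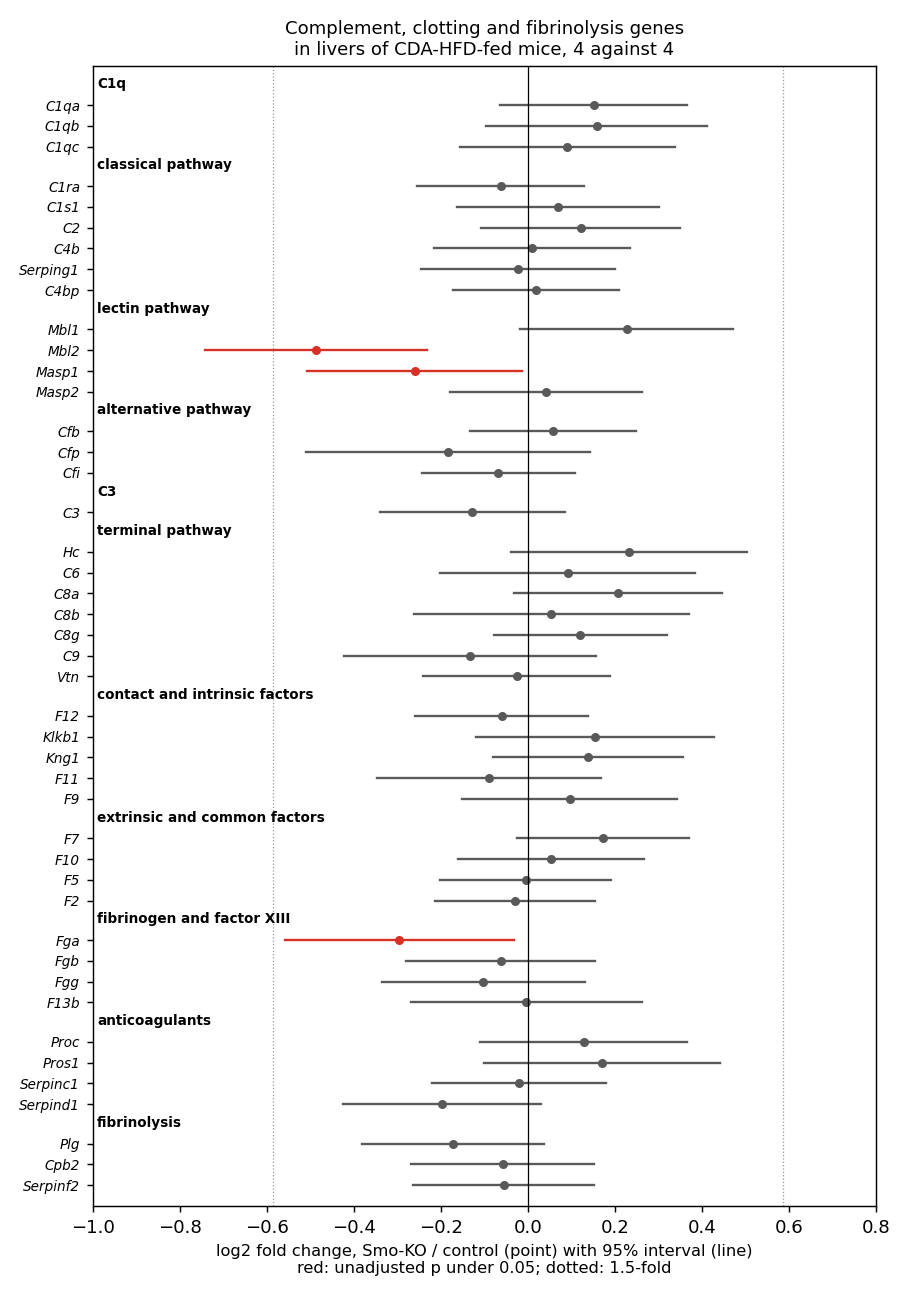
Log2 fold change of the 44 genes tested, Smo-KO over control, grouped by role. Points are edgeR estimates from 4 livers a group, lines their 95% intervals, red marks an unadjusted p under 0.05 and dotted lines mark 1.5-fold. Only the interval of Mbl2 passes a dotted line.

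Together the 45 genes took a share of the gene reads of 3.80% ± 0.0822 in the control group and 3.69% ± 0.195 in the Smo-KO group (mean ± SD, n = 4 each). Complement genes took 2.03% ± 0.0771 and 2.00% ± 0.123, clotting genes 1.47% ± 0.0343 and 1.42% ± 0.0776, and fibrinolysis genes 0.294% ± 0.0121 and 0.268% ± 0.0204. For each class the shares of the groups overlapped. To compare levels between genes, reads were divided by the length of each gene's longest transcript and scaled to a total of 1000000 per liver. On this length-scaled measure vitronectin (Vtn), an inhibitor of the terminal pore that also binds cells to matrix, stood first in control livers with 3129 ± 253, followed by C3 with 2813 ± 241. The gamma and alpha chains of fibrinogen (Fgg, Fga) followed with 2113 ± 196 and 1605 ± 117, then kininogen (Kng1) with 1530 ± 132 and plasminogen (Plg) with 1421 ± 89.9. From Fga to Plg each gene lay within the larger SD of its neighbour, as did Serping1 (1225 ± 115), the inhibitor of C1, and F2 (1149 ± 39.5), which encodes prothrombin. The order depends on the transcript length used. For the beta chain of fibrinogen (Fgb) this was 3810 bases, against 1741 for Fgg and 2587 for Fga. Fgb came to 1104 ± 63.9, although its CPM in control livers (1897 ± 65.9) was above that of Fgg (1656 ± 96.1). At the low end of the 44 genes tested stood Masp2 with 67.0 ± 6.96, Masp1 with 51.4 ± 4.07 and Pros1, which encodes protein S, with 50.9 ± 6.14; the last pair did not differ beyond their spread.

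Within the lectin pathway the mouse has 2 mannose-binding lectin genes, both liver products that bind microbial sugars and carry the MASP proteases. Mbl1 lies on chr14:41151456-41163904 and Mbl2 on chr19:30232906-30239687 of GRCm38, so they do not share a neighbourhood. Their promoters are shown because Mbl2 had the lowest log2 fold change of the 44 genes tested while that of its relative Mbl1 was above 0. RefSeq (GRCm38.p6) gives the 250 bases before the start as chr14:41151206-41151455 for Mbl1 and chr19:30232678-30232927 for Mbl2, both on the plus strand. The gene coordinates of Mbl2 given above begin a little upstream of the start used for its promoter, inside the window. Capitals mark the longest run of bases that the windows share:
Mbl1: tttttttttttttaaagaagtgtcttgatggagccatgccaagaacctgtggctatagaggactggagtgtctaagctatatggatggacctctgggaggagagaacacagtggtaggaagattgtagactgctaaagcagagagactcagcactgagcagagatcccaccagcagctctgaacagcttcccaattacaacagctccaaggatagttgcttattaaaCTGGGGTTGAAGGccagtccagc
Mbl2: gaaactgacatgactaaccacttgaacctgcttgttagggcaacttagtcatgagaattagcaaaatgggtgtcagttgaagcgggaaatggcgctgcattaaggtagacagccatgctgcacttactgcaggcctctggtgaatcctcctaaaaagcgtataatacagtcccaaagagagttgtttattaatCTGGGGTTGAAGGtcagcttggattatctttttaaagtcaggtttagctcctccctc
The shared run is 13 bases long, from 23 to 11 bases before the start of Mbl1 and from 57 to 45 bases before that of Mbl2, and 3 of 27025 genes with a listed promoter hold it on this strand. None of 5 motifs searched for (given with the fibrinogen genes) was found in either window.

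All 4 Smo-KO livers held less Mbl2 RNA than any control liver did, which was not so for Mbl1. Mbl2 was counted at 366, 360.1, 374 and 355 CPM in control livers and at 195, 293, 263 and 288 CPM in Smo-KO livers. Control livers lay close together and Smo-KO liver 1 was the lowest of all. The Smo-KO mean was 71.4% of the control mean (log2 fold change -0.49, 95% interval -0.74 to -0.23, edgeR unadjusted p = 0.00124, adjusted p = 0.145, DESeq2 adjusted p = 0.0205, exact permutation test, two-sided p = 0.0286). Leaving out each liver in turn kept the log2 fold change of Mbl2 between -0.55 and -0.36 and the unadjusted p under 0.05 in 8 of 8 fits. Mbl1 was counted at 191, 181, 223 and 189.6 CPM in control livers and at 189.0, 247, 264 and 218 CPM in Smo-KO livers. Smo-KO liver 1 stood at the control level and Smo-KO livers 2 and 3 above every control liver (log2 fold change 0.23, 95% interval -0.02 to 0.47, edgeR unadjusted p = 0.0662, adjusted p = 0.396). The unadjusted p of Mbl1 ran from 0.0115 to 0.202 over the 8 fits that left out 1 liver each, under 0.05 without control 3 (0.0273) and without Smo-KO 1 (0.0115), and was 0.0434 with the replicate number as a block. The ratio of Mbl2 to Mbl1 CPM was 1.91, 1.99, 1.68 and 1.87 in control livers and 1.03, 1.18, 0.996 and 1.32 in Smo-KO livers. The ratio does not depend on library scaling, and its groups did not overlap; it was formed after the values of both genes were seen and is given as a description.

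The proteases carried by these lectins are encoded by Masp1 and Masp2. Masp1, at chr16:23451785-23521240, encodes MASP-1, which starts lectin activation, and by splicing also MASP-3, which activates factor D; the count sums these products. It was counted at 119, 129, 128 and 119 CPM in control livers and at 126, 98.8, 83.2 and 104 CPM in Smo-KO livers. Smo-KO livers 2 to 4 lay below every control liver and Smo-KO liver 1 among them (log2 fold change -0.26, 95% interval -0.51 to -0.01, edgeR unadjusted p = 0.0399, adjusted p = 0.334, exact permutation test, two-sided p = 0.0857). The unadjusted p of Masp1 was under 0.05 in 2 of 8 fits that left out 1 liver each, those without control 1 and without Smo-KO 1. Masp2, the protease that cuts C4 and C2, stood at 92.6 ± 11.7 CPM in control and 95.4 ± 6.19 CPM in Smo-KO livers (log2 fold change 0.04, 95% interval -0.18 to 0.26). The ratio of Masp1 to Masp2 was 1.35 ± 0.210 in the control group and 1.09 ± 0.253 in the Smo-KO group (SD of 4 livers), with overlap. Colec10 and Colec11, other lectins that carry MASPs, stood at 14.2 ± 1.65 and 40.2 ± 3.74 CPM in control livers. In Smo-KO livers Colec10 gave 17.0, 7.31, 7.07 and 12.6 CPM and Colec11 46.8, 23.2, 29.4 and 41.5 CPM, so that livers 2 and 3 were below and liver 1 above every control liver for both; these genes were named after their values were seen. Summed markers of sinusoidal endothelial cells (8 genes, Stab1 the most abundant) took 299, 153, 205 and 247 CPM in the same livers, beside 235 ± 13.6 CPM in control livers. Summed stellate cell markers (8 genes, Col3a1 the most abundant) took 1037, 787, 953 and 1118 CPM, beside 1050.4 ± 70.7 CPM. Smo-KO liver 2 was the lowest for both sums; the part of these cells in the values of Masp1, Colec10 and Colec11 was not tested. In whole liver, fewer cells of a type and less RNA per cell cannot be told apart.

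**Figure D2:**
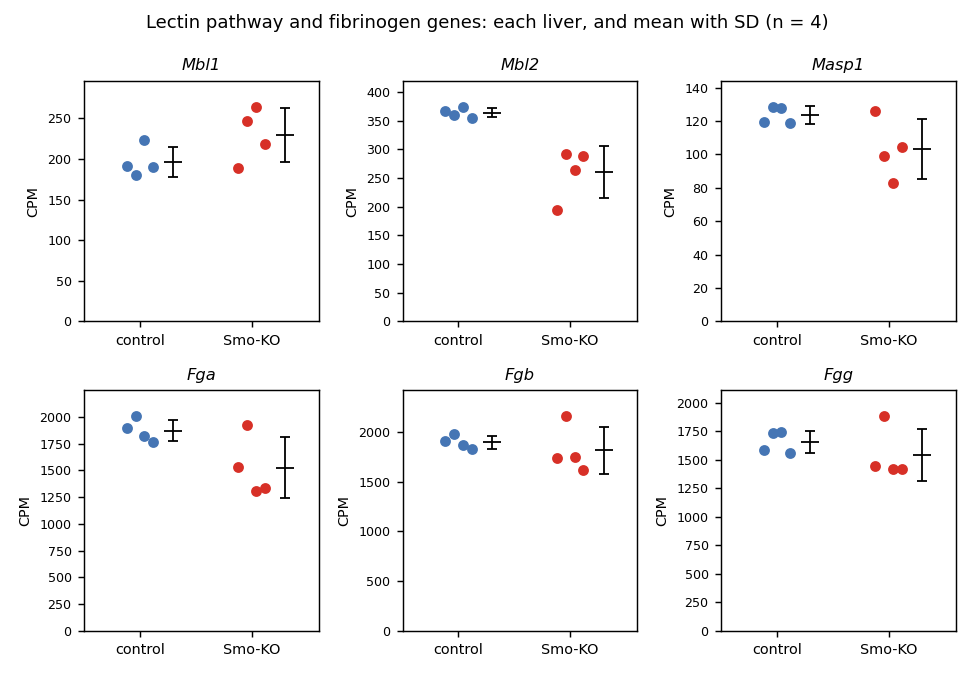
CPM of 3 lectin pathway genes and the 3 fibrinogen chains in each liver (points; blue, control; red, Smo-KO), with the mean and SD of 4 livers at the right of each group; axes start at 0. For Mbl2 the 4 red points lie below all blue points, and in the lower row the red point of Smo-KO liver 2 stands above the other 3.

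Fibrinogen is built from 3 chains whose genes lie side by side on chromosome 3: Fgg at chr3:83007724-83015056, Fga at chr3:83026153-83033627 and, on the opposite strand, Fgb at chr3:83042246-83049863. Their promoters are shown because the chains are made for 1 protein in equal numbers and the ratio of Fga to Fgb RNA did not overlap between the groups. The windows are the 250 bases before the RefSeq start, chr3:83007474-83007723 (plus) for Fgg, chr3:83025903-83026152 (plus) for Fga and chr3:83049864-83050113 (minus) for Fgb. Capitals mark matches to motifs named below:
Fga: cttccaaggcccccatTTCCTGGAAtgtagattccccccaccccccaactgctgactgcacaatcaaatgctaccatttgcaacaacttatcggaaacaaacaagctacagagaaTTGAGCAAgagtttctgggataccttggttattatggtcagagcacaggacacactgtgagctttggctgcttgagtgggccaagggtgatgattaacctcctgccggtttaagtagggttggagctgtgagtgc
Fgb: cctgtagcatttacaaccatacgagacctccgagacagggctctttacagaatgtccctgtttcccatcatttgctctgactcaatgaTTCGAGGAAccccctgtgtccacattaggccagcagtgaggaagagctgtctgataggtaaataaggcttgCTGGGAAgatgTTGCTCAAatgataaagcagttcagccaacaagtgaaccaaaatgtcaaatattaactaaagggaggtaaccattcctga
Fgg: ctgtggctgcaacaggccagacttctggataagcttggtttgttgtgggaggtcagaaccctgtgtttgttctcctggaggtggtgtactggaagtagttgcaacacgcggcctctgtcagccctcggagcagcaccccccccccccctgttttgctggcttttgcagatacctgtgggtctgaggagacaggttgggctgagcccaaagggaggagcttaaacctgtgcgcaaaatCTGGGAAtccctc
Motifs were searched on both strands. They were TTGCNNAA (or TTNNGCAA), a C/EBP site, CTGGGAA (or TTCCCAG), the interleukin-6 response element, TTCNNNGAA, a STAT site, the interferon response element, spelled GAAA, any 2 bases and GAAA, and CAAAGTCCA (or TGGACTTTG), an HNF4 site. Matches to different motifs may share bases, though none of those printed do. Fga held C/EBP letters 135 to 128 bases and STAT letters 234 to 226 bases before its start. Fgb held C/EBP letters at 80 to 73, CTGGGAA at 91 to 85 and STAT letters at 162 to 154 bases before its start. Fgg held only CTGGGAA, at 13 to 7 bases. Among all 27025 listed promoters of this length 10.8% held the C/EBP letters, 10.4% CTGGGAA, 8.13% the STAT letters, 3.46% the interferon element and 0.451% the HNF4 letters. Among the 35 of 45 genes with a listed promoter the counts were 8, 5, 6, 0 and 0 in that order. A match is a run of letters, and no binding was measured.

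For each of the 3 fibrinogen chains, Smo-KO livers 1, 3 and 4 lay below every control liver, and of the chains Fga alone had an unadjusted p under 0.05. Fga was counted at 1891, 2006, 1826 and 1766 CPM in control livers and at 1533, 1927, 1303 and 1339 CPM in Smo-KO livers. Smo-KO liver 2 lay within the control range. The mean was 81.5% of the control mean (log2 fold change -0.30, 95% interval -0.56 to -0.03, edgeR unadjusted p = 0.0302, adjusted p = 0.308, exact permutation test, two-sided p = 0.114). Without Smo-KO liver 2 the log2 fold change of Fga was -0.43, and over the 8 fits that left out 1 liver each the unadjusted p ran from 0.00114 to 0.0950. Fgb gave 1907, 1983, 1871 and 1827 CPM in control livers and 1736, 2160.5, 1750.3 and 1618 CPM in Smo-KO livers (log2 fold change -0.06, 95% interval -0.28 to 0.16). Fgg gave 1585, 1735, 1743 and 1562 CPM and then 1448, 1882, 1419 and 1423 CPM (log2 fold change -0.10, 95% interval -0.33 to 0.13). In all 3 chains Smo-KO liver 2 was the highest of its group. Without it the log2 fold change was -0.16 for Fgb (edgeR unadjusted p = 0.108) and -0.21 for Fgg (edgeR unadjusted p = 0.0401). Over the 8 fits that left out 1 liver each, the value came as near 0 as -0.011 for Fgb and -0.064 for Fgg. The unadjusted p of edgeR then reached 0.920 for Fgb and 0.596 for Fgg. Within a liver, the ratio of Fga to Fgb CPM was 0.992, 1.01, 0.976 and 0.967 in control livers and 0.883, 0.892, 0.745 and 0.827 in Smo-KO livers, with no overlap. The ratio of Fgb to Fgg was 1.15 ± 0.0552 and 1.18 ± 0.0451 and that of Fga to Fgg 1.13 ± 0.0621 and 0.985 ± 0.0668 (SD, n = 4 each), and both overlapped between groups. These ratios were chosen after the values were seen and carry no test. F13b, the carrier subunit of the factor that cross-links fibrin, stood at 161 ± 24.7 and 161 ± 20.6 CPM.

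C1q, the antibody-binding start of the classical pathway, is described apart because macrophages make its 3 chains. The genes lie together on chromosome 4, C1qb at chr4:136880126-136886200, C1qc at chr4:136889801-136892936 and C1qa at chr4:136895916-136898844. C1qa was counted at 286, 307, 346 and 346 CPM in control livers and at 379, 312, 388 and 348 CPM in Smo-KO livers (log2 fold change 0.15, 95% interval -0.06 to 0.37, edgeR adjusted p = 0.525). C1qb gave 270.4, 318, 383 and 346 CPM and then 408, 321, 397 and 345 CPM (log2 fold change 0.16, 95% interval -0.10 to 0.41, edgeR adjusted p = 0.580). C1qc gave 239, 254, 296 and 307 CPM and then 328, 245, 316 and 278 CPM (log2 fold change 0.09, 95% interval -0.16 to 0.34, edgeR adjusted p = 0.764). The groups overlapped for each chain, Smo-KO livers 1 and 3 were high in all 3 chains, and Smo-KO liver 2 was the lowest of its group. Exact permutation tests gave two-sided p = 0.143, 0.257 and 0.486 for C1qa, C1qb and C1qc.

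Summed over 15 Kupffer cell and macrophage markers, the level was 1978, 1891, 2441 and 2235 CPM in control livers and 2592, 1998, 2174 and 2188 CPM in Smo-KO livers. The summed C1q chains divided by this sum gave 0.434 ± 0.0279 in control and 0.455 ± 0.0346 in Smo-KO livers, with overlap. The ratio of C1qa to the single marker Csf1r was 1.48 ± 0.128 in control and 1.81 ± 0.167 in Smo-KO livers. There only Smo-KO liver 1 (1.593) lay under the highest control liver (1.602). Cd5l was the most abundant marker, and none of the 15 was at 0. Trem2, a receptor of lipid-associated macrophages, and Lyz2, lysozyme, were the 2 of 15 with an unadjusted p under 0.05, both higher in every Smo-KO liver than in any control liver. That is 13.3% of the list by either rule, beside 13.8% of all genes tested with such a p and 7.37% without overlap, and of the 15 markers 8 had log2 fold changes above 0 and 7 below (median 0.06). Trem2 stood at 29.8, 36.2, 32.8 and 35.7 CPM in control livers and at 43.9, 54.6, 66.5 and 61.1 CPM in Smo-KO livers (log2 fold change 0.75, edgeR adjusted p = 0.0957, DESeq2 adjusted p = 0.000169). Lyz2 stood at 366, 442, 397 and 445 CPM and then at 492, 556, 549 and 453 CPM (log2 fold change 0.31, edgeR adjusted p = 0.219). The Kupffer cell genes Clec4f, Timd4, Vsig4 and Adgre1 had log2 fold changes of -0.05, -0.19, 0.17 and 0.06.

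**Figure D3:**
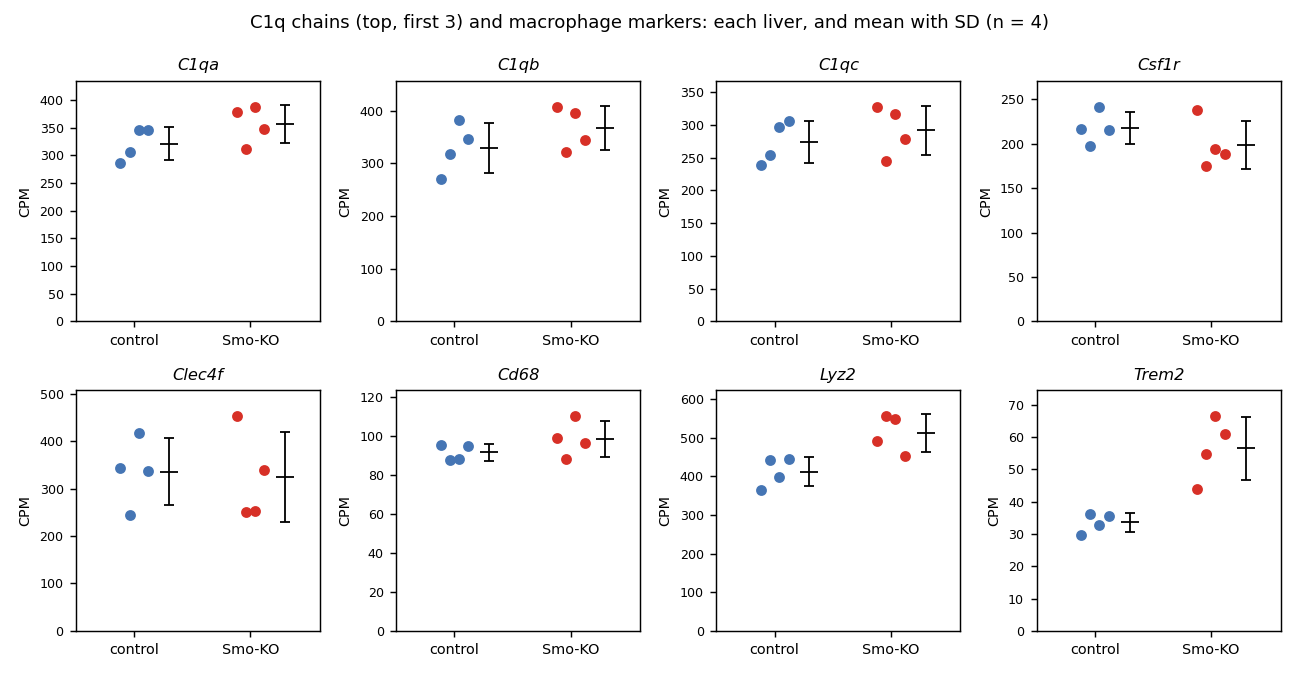
CPM of the C1q chains and of 5 macrophage markers in each liver (points; blue, control; red, Smo-KO), with the mean and SD of 4 livers at the right of each group; axes start at 0. C1q groups overlap, as do those of Csf1r, Clec4f and Cd68, whereas Lyz2 and Trem2 of the 4 Smo-KO livers lie above all control livers.

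None of the 6 other classical pathway genes had an unadjusted p under 0.05, and their log2 fold changes lay between -0.06 and 0.12. C1ra and C1s1, the proteases of C1, had values of -0.06 and 0.07, C2 and C4b, which form the classical C3 convertase, 0.12 and 0.01, Serping1 -0.02, and C4bp, which takes the convertase apart, 0.02. C4b was counted at 1376 ± 163 CPM in control and 1385 ± 119 CPM in Smo-KO livers. It has a near copy, C4a, at 29.5, 36.9, 21.0 and 23.8 CPM in control livers, and reads could be split between both genes; the copies of C1ra and C1s1 (C1rb, C1s2) had at most 3 reads in a liver. C2 and Cfb adjoin each other at chr17:34862602-34882100 and chr17:34856374-34862514, so that reads running from one to the other are uncertain. In the alternative pathway Cfb, the protease part of the alternative convertase, stood at 1411 ± 56.8 and 1469 ± 113 CPM (log2 fold change 0.06) and Cfi, which inactivates C3b, had a log2 fold change of -0.07. Properdin (Cfp), which steadies the convertase, was counted at 124, 112, 143 and 135 CPM in control livers and at 144.5, 79.8, 107 and 121 CPM in Smo-KO livers (log2 fold change -0.18, 95% interval -0.51 to 0.14). As for the C1q chains, Smo-KO liver 2 was the lowest of its group. The log2 fold change of Cfp was -0.05 without Smo-KO 2 and -0.32 without Smo-KO 1 (edgeR unadjusted p = 0.0391).

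Cfd, which encodes factor D or adipsin, had at most 1 read in any liver. This is under 3 reads in both groups, so no fold change is given, and the depth cannot show a level below about 0.366 CPM. Of 7 adipocyte markers Lep was at 0 in every liver and Adipoq, Plin1 and Retn had at most 1 read. Cidec, which lipid-laden hepatocytes also express, was the most abundant at 42.7 ± 14.7 CPM in control and 63.3 ± 23.1 CPM in Smo-KO livers. C3, the hub of all pathways, was counted at 6484, 6712, 6882 and 5964 CPM in control livers and at 5822, 6596, 6165 and 5246 CPM in Smo-KO livers. The groups overlapped (log2 fold change -0.13, 95% interval -0.34 to 0.08, edgeR adjusted p = 0.592).

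The 7 genes of the terminal pathway had log2 fold changes from -0.13 to 0.23, 5 of them above 0, and none had an unadjusted p under 0.05. Hc, which encodes C5, had the highest value of all 44 genes. It was counted at 875, 1004, 749.9 and 858 CPM in control livers and at 841, 1210.2, 1104 and 941 CPM in Smo-KO livers (log2 fold change 0.23, 95% interval -0.04 to 0.50, edgeR adjusted p = 0.429). Of the pore-forming subunits, C8a stood at 0.21, C8g at 0.12, C6 at 0.09, C8b at 0.05 and C9 at -0.13 on the log2 scale. Smo-KO liver 2 was above the control mean for Hc and these 5 genes, Smo-KO liver 3 for all but C9, and Smo-KO liver 1 for C8a alone. With 1 liver left out Hc had an edgeR unadjusted p under 0.05 without control 2 (0.0374) and without Smo-KO 1 (0.0208), and C8a without Smo-KO 1 (0.0352) and without Smo-KO 4 (0.0328). Vtn had a log2 fold change of -0.03.

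Of 30 further complement genes (receptors, regulators, relatives), 23 were tested, 1 with an unadjusted p under 0.05 lower and 4 higher in Smo-KO livers. Among all genes tested 7.15% were lower and 6.7% higher by this rule, and the same shares stand beside the counts of the lists that follow. C3ar1, the receptor of the C3a fragment on myeloid cells, stood at 22.3, 31.4, 38.7 and 28.8 CPM in control livers and at 38.2, 40.7, 45.5 and 37.6 CPM in Smo-KO livers (log2 fold change 0.42, edgeR adjusted p = 0.241). Cd59a, which blocks the pore on the cell's own membrane, had a log2 fold change of 0.34, Cfhr2, a relative of factor H, 0.32, and C5ar1, the C5a receptor, 0.33; the last was named after its value was seen. C1rl, a C1r-like protease, was lower in every Smo-KO liver, with 208, 172, 162 and 171 CPM in control livers and 159, 158, 119.6 and 156 CPM in Smo-KO livers (log2 fold change -0.27, edgeR adjusted p = 0.316). C3ar1 and C5ar1 are genes of myeloid cells, whose summed macrophage markers overlapped between the groups; the part of these cells in the 2 values was not tested.

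Several complement genes, among them C2, C4b, Cfb, C1ra, C1s1 and Serping1, are known to be induced by interferon-gamma, so a list of interferon-response genes was set beside them. Of 16 such genes 15 were tested, of which 10 were lower and 0 higher at an unadjusted p under 0.05 (4 with a DESeq2 adjusted p under 0.05), with a median log2 fold change of -0.47. No gene of the list passed edgeR's adjustment, and 5 of the 15 did not pass the unadjusted test, among them Irf7 (-0.14), Stat2 (-0.05) and B2m (0.08). Cxcl9, a chemokine that draws T cells, was counted at 87.8, 123, 174 and 170.5 CPM in control livers and at 40.3, 32.4, 90.2 and 28.1 CPM in Smo-KO livers (log2 fold change -1.55, edgeR adjusted p = 0.116, DESeq2 adjusted p = 0.0458). Smo-KO liver 3 lay just above the lowest control liver and the other 3 below all of them. Ciita, which switches on MHC class II genes, had a log2 fold change of -0.89 and Irf1 of -0.49. For the 6 complement genes the values lay between -0.06 and 0.12, and each of their groups overlapped. All 7 T and NK cell markers tested were lower at an unadjusted p under 0.05, with summed levels of 56.5, 60.5, 49.9 and 69.3 CPM in control livers and 26.1, 23.3, 38.9 and 38.7 CPM in Smo-KO livers; Nkg7 was the most abundant of the 8 counted markers, and none was at 0 in every liver. The part of these cells in the interferon-response values was not tested.

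**Figure D4:**
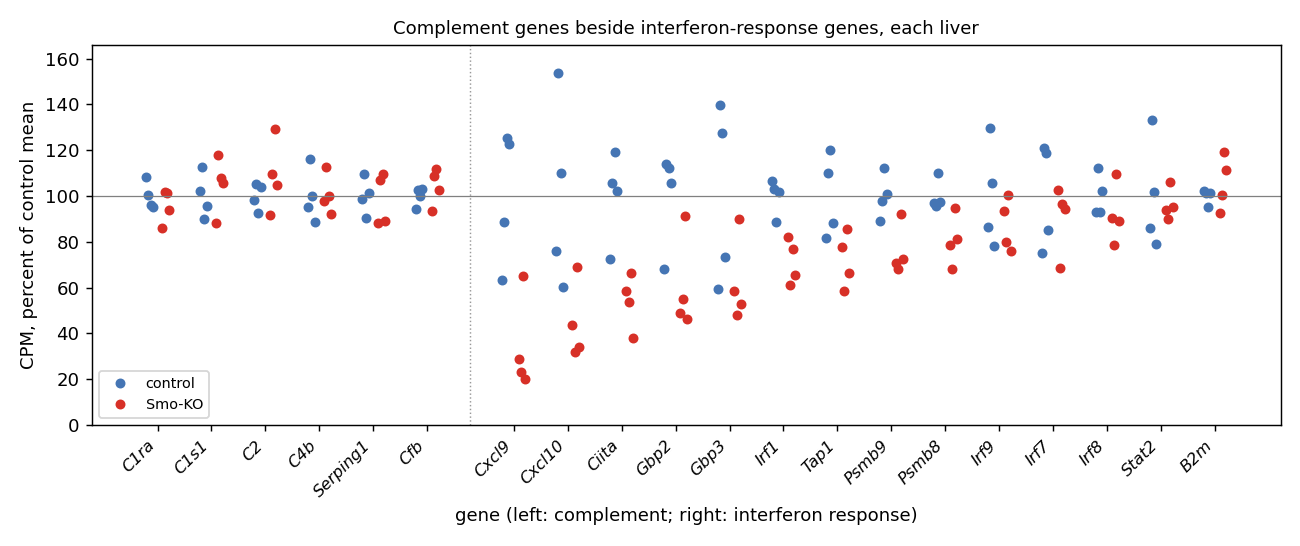
CPM of 6 complement genes known to respond to interferon-gamma (left of the dotted line) and of 14 interferon-response genes (right, by log2 fold change), each liver as a percent of the control mean of that gene; blue, control; red, Smo-KO, 4 livers each. On the left both colours lie around 100%. On the right all 4 Smo-KO livers lie under 100% for 9 genes, from Cxcl9 to Psmb8, and at least 1 lies above it for the other 5, from Irf9 to B2m.

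In the contact and intrinsic part of clotting no gene had an unadjusted p under 0.05. F12, which starts it on charged surfaces, had a log2 fold change of -0.06, Klkb1 (prekallikrein) 0.15, Kng1 0.14, F11 -0.09 and F9, the factor lacking in haemophilia B, 0.10. With 1 liver left out the value ran from -0.18 to -0.0022 for F11 and from 0.0038 to 0.18 for F9. Kng1 has a near copy, Kng2, which stood at 267 ± 35.4 and 296 ± 19.6 CPM, so its count is uncertain. Among the extrinsic and common factors, F7, the partner of tissue factor, was counted at 99.7, 93.3, 77.9 and 86.0 CPM in control livers and at 97.2, 105, 99.6 and 100.4 CPM in Smo-KO livers (log2 fold change 0.17, 95% interval -0.03 to 0.37, edgeR adjusted p = 0.421). F10, F5 and F2 had log2 fold changes of 0.05, -0.01 and -0.03. F2 gave 1764, 1659.6, 1578 and 1569 CPM in control livers and 1539, 1723, 1576 and 1599 CPM in Smo-KO livers, over much the same range.

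Anticoagulant genes were spread around 0. Antithrombin (Serpinc1) had a log2 fold change of -0.02, protein C (Proc) 0.13 and protein S (Pros1) 0.17. Heparin cofactor II (Serpind1) was counted at 645, 539.7, 552 and 595 CPM in control livers and at 539, 560.4, 420.4 and 513 CPM in Smo-KO livers. Smo-KO liver 3 was the lowest, liver 2 lay within the control range and liver 1 just under it (log2 fold change -0.20, 95% interval -0.43 to 0.03, edgeR adjusted p = 0.422). Of 20 further clotting genes 17 were tested, 1 lower and 1 higher at an unadjusted p under 0.05. Procr, the endothelial receptor of protein C, had a log2 fold change of -0.46 at under 10 CPM, and Fgl1, a fibrinogen-like hepatocyte protein, stood at 184, 198, 188 and 195 CPM in control livers and at 201, 214, 266 and 226 CPM in Smo-KO livers (log2 fold change 0.24, edgeR adjusted p = 0.290). Fgl1 was above every control liver in each Smo-KO liver. It was 1 of 2 among the 17 genes whose groups did not overlap, both higher in Smo-KO livers. Of all genes tested 3.03% were higher without overlap. Fgl2 and Serpine2 had log2 fold changes of -0.42 and 0.35 at unadjusted p of 0.0511 and 0.141 in edgeR.

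Several clotting factors need vitamin K for their carboxylation, and some are cut from a propeptide or carried out of the endoplasmic reticulum by a receptor. A list of 8 genes was tested for these steps, which also held Fn3k, a fructosamine kinase outside them (log2 fold change 0.08). Lman1, the receptor that with Mcfd2 carries factors V and VIII out of the endoplasmic reticulum, stood lower in all 4 Smo-KO livers than in any control liver. It stood at 304, 235, 294 and 277 CPM in control livers and at 206, 211, 171 and 233 CPM in Smo-KO livers (log2 fold change -0.44, 95% interval -0.68 to -0.19, edgeR adjusted p = 0.156, DESeq2 adjusted p = 0.0373). Control liver 2 and Smo-KO liver 4 were close to each other. Mcfd2 had a log2 fold change of -0.17, and Ggcx and Vkorc1l1, of the vitamin K cycle, -0.21 and -0.18; the groups of these 3 genes overlapped. Lman1 was the only one of the 8 with an unadjusted p under 0.05.

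The 3 fibrinolysis genes all had log2 fold changes below 0 and intervals that included 0. Plg, the precursor of plasmin, was counted at 1926, 1849, 1652 and 1649 CPM in control livers and at 1473, 1779.9, 1493 and 1532 CPM in Smo-KO livers. Smo-KO livers 1, 3 and 4 lay below all control livers and liver 2 within their range (log2 fold change -0.17, 95% interval -0.38 to 0.04, edgeR unadjusted p = 0.0981, adjusted p = 0.451). Cpb2, a carboxypeptidase that slows the lysis of fibrin, and Serpinf2, the plasmin inhibitor, both had a log2 fold change of -0.06. Of 11 further genes of this system 9 were tested and 0 had an unadjusted p under 0.05 in edgeR; the smallest p among them belonged to Pzp (log2 fold change -0.16).

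Among the 40 genes known from hepatocytes, which leaves out the C1q chains, Cfp and Cfd, single livers of both groups lay on either side of the control mean. The median difference from the mean of the control livers, on the log2 CPM scale, was -0.11 in Smo-KO liver 1, 0.14 in liver 2, 0.01 in liver 3 and -0.04 in liver 4. In Smo-KO liver 1 the level was above the control mean in 5 of 40 genes and in Smo-KO liver 2 in 35 of 40. The same count was not made over all genes tested, so these counts cannot be read as particular to the 40 genes. Control livers had medians of 0.03, 0.03, -0.06 and -0.04. Leaving out Smo-KO liver 2 left 8 genes without overlap between the groups, 7 lower (Cfi, Fga, Fgb, Fgg, Mbl2, Plg, Serpind1) and 1 higher (C1qa), beside 11.6% of all genes tested. Leaving out Smo-KO liver 1 left 4, Masp1 and Mbl2 lower and C8g and Pros1 higher, beside 16.2%, and leaving out control liver 1 left Mbl2 lower and F7, Proc and Vtn higher, beside 12.9%.

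**Figure D5:**
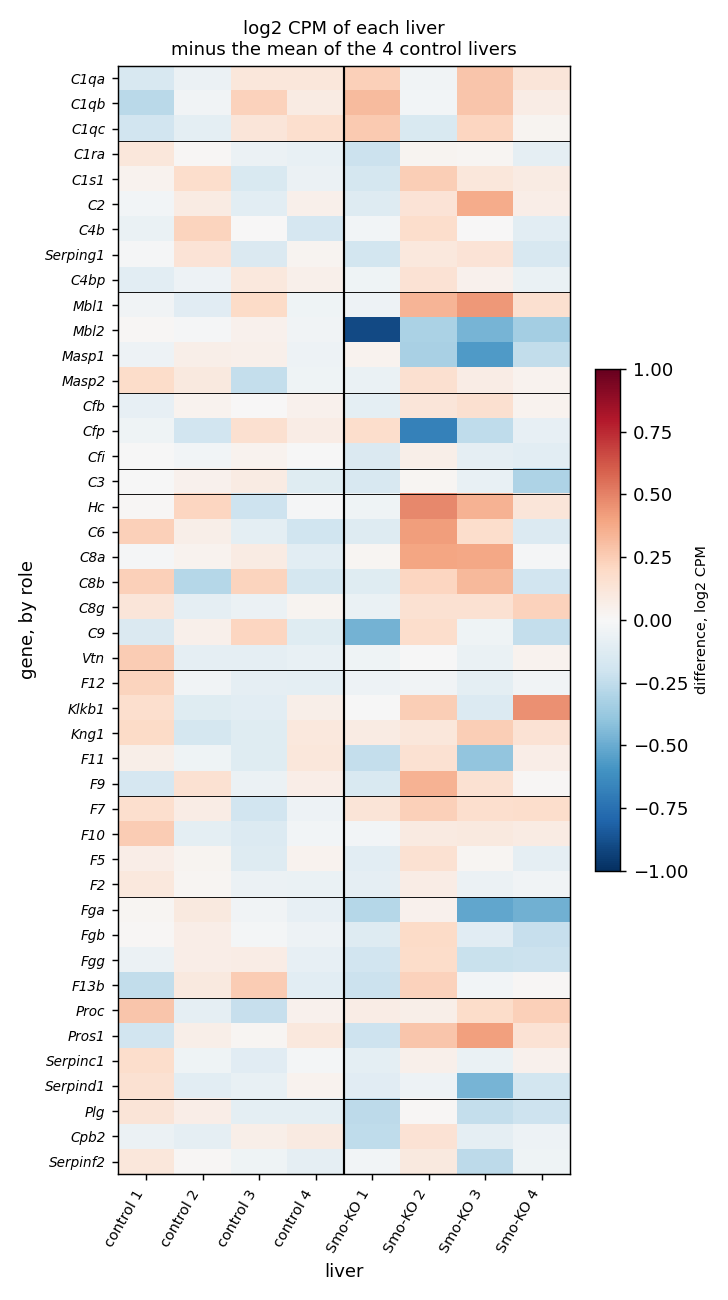
Difference of log2 CPM from the mean of the 4 control livers for the 44 genes tested (rows, by role) in each of the 8 livers (columns); red is higher and blue lower. Smo-KO liver 1 is mostly pale blue and Smo-KO liver 2 mostly red, and the row of Mbl2 is blue in all 4 Smo-KO livers.

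Genes that control the hepatocyte program behind these factors were listed as well. Of 15 liver transcription factors tested, 1 was lower and 2 higher at an unadjusted p under 0.05. Hnf4a had a log2 fold change of -0.13, and Cebpa and Cebpb of 0.03 and -0.05. Onecut1 stood at 1.47, 1.36, 3.88 and 1.29 CPM in control livers and at 2.47, 7.09, 13.8 and 4.37 CPM in Smo-KO livers (log2 fold change 1.76, edgeR adjusted p = 0.176). Foxa1 stood at 25.6, 25.5, 25.5 and 24.0 CPM and then at 22.6, 28.0, 50.9 and 35.6 CPM (log2 fold change 0.44, edgeR adjusted p = 0.338), and both were highest in Smo-KO liver 3. Nr0b2, which encodes the repressor SHP, had a log2 fold change of -0.65, with control livers spread from 31.4 to 113 CPM. A list of genes of interleukin-6 signalling also held Il1b, Il1r1 and Tnf, which belong to interleukin-1 and TNF signalling. Of its 9 genes tested 1 was higher at an unadjusted p under 0.05, Il1r1, the interleukin-1 receptor (log2 fold change 0.41). Il6 was too low to test, and the log2 fold changes were -0.23 for the receptor gene Il6ra, -0.09 for Stat3 and 0.07 for Socs3.

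Acute-phase proteins outside the 45 genes were taken from a list of 18. Of 18 tested, 13 had log2 fold changes above 0 (median 0.18), 3 of 18 (16.7%) with an unadjusted p under 0.05 higher and 0 lower, beside 13.8% in either direction among all genes tested. Saa1, serum amyloid A, was counted at 147, 233, 136 and 165 CPM in control livers and at 134, 541, 189.9 and 297 CPM in Smo-KO livers (log2 fold change 0.77, edgeR adjusted p = 0.330). Smo-KO liver 2 was the highest and liver 1 the lowest of all 8 livers. Lcn2 had a log2 fold change of 0.28, Fgl1, counted above with the clotting genes, of 0.24 and Orm2 of 0.45, the last at an unadjusted p of 0.0523 in edgeR. Of 12 hepatocyte markers 1, Cps1, a urea cycle enzyme, had an unadjusted p under 0.05 (log2 fold change -0.33), and their sum was 51270 ± 2741 CPM in control and 50612 ± 1544 CPM in Smo-KO livers (SD, n = 4 each). Albumin, the most abundant, had a log2 fold change of -0.11.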

How the data were processed

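Per the labels and the study's methods, RNA of whole liver from 8 mice was sequenced and reads were counted per gene. The authors deposited whole-number read counts for 25239 symbols per liver, without normalization. The submitters' processing notes name fastp, STAR 2.7.5, featureCounts 2.0.1 and GRCm38; the lists end in lines of the form that htseq-count writes, so the counting program is uncertain, and the annotation and strand setting are not given in the sources used here. Lines without a gene (reads outside features, 7.56% to 9.32% per control liver and 8.97% to 9.68% per Smo-KO liver, and reads shared by genes, 2.45% to 2.61%) entered neither library sizes nor tests.

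The quasi-likelihood test of edgeR 4.0.16 (R 4.3.3; TMM scaling, filterByExpr, glmQLFit, glmQLFTest) compared the groups with no covariate, and p-values were adjusted by Benjamini-Hochberg over 12977 genes. Intervals of log2 fold changes were derived from the F statistic of edgeR. DESeq2 1.42.0 was an alternative, as were RLE size factors, no filter, at least 10 counts in every library, the replicate number as a block, a threshold of 0.1, complement without C1q, Cfp and Cfd, and each liver left out in turn. Exact permutation tests used the 70 assignments of 4 of 8 livers, two-sided (SciPy 1.17.1). The procedure was tested on simulated data. No pair of libraries within a group agreed within sampling noise. No molecular identifiers are described, so the depth covers counting error only, and p-values measure the spread between these mice.

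Members and gene lists were chosen with earlier results of these data known. Named by rule were Smo, every member by role, members with an unadjusted p under 0.05 or without overlap and the C1q chains liver by liver, and up to 4 genes per further list by smallest p; exceptions, among them ratios, partner genes, the livers' values of Mbl1, Fgb, Fgg, C3, Hc, Cfp, F7, F2, Serpind1, Plg and Cxcl9, Hnf4a, Cebpa, Cebpb, Il6ra, Stat3, Socs3, Clec4f, Timd4, Vsig4 and Adgre1, were chosen after values were seen. Lengths are from GENCODE M21, and coordinates and promoters from RefSeq, all on GRCm38. Of 45 members 45 had coordinates and 35 a promoter. Results of 3 single genes are not reported here, though counts and medians of the lists include them. One marker symbol (Trac) did not match the count lists. Figures were drawn with matplotlib 3.10.9.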

Additional observations from a re-analysis of the deposited data

Results flagged for a closer look

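Among 233 groups of 4 livers examined, those of the genes named here, 10 held a liver that stood apart from the other 3. Chance flags about 5% of groups. The first 3 belonged to the complement, clotting and fibrinolysis genes. Vtn stood at 2934 CPM in control liver 1 and at 2303 to 2339 CPM in the other control livers. F10 stood at 493 CPM in Smo-KO liver 1 and at 531 to 538 CPM in the other Smo-KO livers. Fgg stood at 1882 CPM in Smo-KO liver 2 and at 1419 to 1448 CPM in the others.

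In the other lists, C1rl stood at 119.6 CPM in Smo-KO liver 3, beside 156 to 159 CPM, and C4a at 39.6 CPM in Smo-KO liver 2, beside 26.5 to 28.1 CPM. Procr stood at 7.53 CPM in Smo-KO liver 1, beside 4.88 to 5.24 CPM, and Sox9, a bile duct marker, at 13.7 CPM in the same liver, beside 8.94 to 9.76 CPM. In control livers Onecut1 stood at 3.88 CPM in liver 3, beside 1.29 to 1.47 CPM, Foxa1 at 24.0 CPM in liver 4, beside 25.5 to 25.6 CPM, and Cd8a, a T cell marker, at 11.001 CPM in liver 1, beside 9.44 to 9.54 CPM.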

How the results depend on the processing

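The count of genes past adjusted p under 0.05, 0 in edgeR, was 61 without a filter on low counts, 8 with the replicate number as a block, 167 with DESeq2 and 15 at adjusted p under 0.1. It ran from 0 to 78 when 1 liver was left out (78 without Smo-KO 1, 5 without control 1, 4 without Smo-KO 3). Members with an unadjusted p under 0.05, 3 in all, ran from 1 to 7 when 1 liver was left out: 1 (Mbl2) without Smo-KO 3, 7 without Smo-KO 1 (C8a, Cfp, Hc, Mbl1 and Pros1 added), 5 without control 1 (F7 and Proc added) and 5 without Smo-KO 2 (Fgg, Plg and Serpind1 added). Hc was added without control 2, Mbl1 without control 3 and C8a without Smo-KO 4. Fga was no longer under 0.05 without control 2 and without Smo-KO 1, 3 or 4. Masp1 was no longer under 0.05 without control 2, 3 or 4 and without Smo-KO 2, 3 or 4. Members without overlap, 1 in all, ran from 1 to 8. The median of complement genes ran from -0.011 (without Smo-KO 2) to 0.067. That of clotting genes ran from -0.062 (without Smo-KO 2) to 0.035 (without Smo-KO 1). That of fibrinolysis genes ran from -0.13 (without Smo-KO 2) to -0.048 (without Smo-KO 3). With DESeq2 Mbl2 passed the adjusted threshold, as did Smo with DESeq2, without the filter and without Smo-KO 1. The cause of these shifts was not tested.

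Replicate numbers are shared by the groups, and Pearson's r over genes of the deviations of livers with 1 number was 0.10, 0.19, 0.06 and 0.11, over 0.1 in 3 of 4 pairs. Of 12 pairs with different numbers 8 were below 0 (mean -0.04, highest 0.16 for control 1 and Smo-KO 4). As 1 pair fell short of 0.1 and the labels give no shared origin, the numbers were not taken as pairs. With the block 4 members had an unadjusted p under 0.05, Mbl1 added.

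Of 44 members and Smo, 31 kept their sign under all 13 alternatives and 14 did not, none of which had a log2 fold change over 0.0916 in size. F5 (-0.01) became 0.0010 with RLE size factors, 0.00013 with at least 10 counts and 0.0010 with DESeq2, and F13b (-0.0034) became 0.0028, 0.0022 and 0.0029 there and 0.0011 with the block. With 1 liver left out the log2 fold change ran from -0.062 to 0.035 for F5, -0.086 to 0.092 for F13b, -0.049 to 0.093 for C4b, -0.078 to 0.034 for Serping1, -0.024 to 0.058 for C4bp, -0.028 to 0.11 for Masp2, -0.033 to 0.18 for C6, -0.039 to 0.14 for C8b, -0.055 to 0.067 for Vtn, -0.090 to 0.018 for F12, -0.064 to 0.0065 for F2, -0.054 to 0.042 for Serpinc1, -0.13 to 0.0092 for Cpb2 and -0.11 to 0.0078 for Serpinf2.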

Other observations

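Markers of the remaining liver cells were also summed. Bile duct markers (6 genes, Spp1 the most abundant) took 149 ± 41.8 CPM in control and 177 ± 46.0 CPM in Smo-KO livers (SD, n = 4 each), and 0 of 5 tested had an unadjusted p under 0.05 in edgeR. Neutrophil markers (6 genes, Csf3r the most abundant, Ly6g at 0 in every liver) took 23.6 ± 5.93 and 24.5 ± 2.75 CPM, and 0 of 3 tested had an unadjusted p under 0.05. Of the sinusoidal endothelial markers 1 of 8, Pecam1 (log2 fold change -0.50), and of the stellate cell markers 1 of 8, Col1a1 (-0.36), had an unadjusted p under 0.05 in edgeR.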
